A study of Saccharomyces cerevisiae with 17 samples.

Results

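The comparison described here set 8 arrays of Saccharomyces cerevisiae grown in microgravity against 9 arrays of the same strains grown on the ground, which together are all 17 arrays of the series. The arrays were chosen by their titles, and strain entered the model as an additive factor, so that each value below is a flight difference shared by 3 strains. Ribosomal protein and proteasome genes were tested with the rest and are given only as counts. The description is of the remaining genes.

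All 3 strains derived from BY4742, a haploid laboratory strain of the alpha mating type with deletions in the LEU2, LYS2, URA3 and HIS3 genes. They were the wild type (WT), a strain carrying [FLO1], which the sample labels describe as overexpressing that flocculin gene (FLO1 strain), and a strain labelled BY4742::FLO8 (FLO8 strain), FLO8 being a transcription factor of flocculin genes that is inactive in the parental background. Cells travelled in saline, received rich medium (YPD) 5 days after launch, and grew for 72 h at 23 °C aboard the space station before filtration and fixation in RNAlater. Ground cultures were run after the flight in an incubator set to the temperatures recorded in orbit, so culture batch and condition cannot be told apart. Each of the 6 groups had 3 arrays, except the FLO1 strain in flight with 2. The labels do not say that replicates were separate cultures or, for the engineered strains, separate clones, so the p-values below reflect only how these arrays varied, which may be technical.

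In budding yeast, commitment to division at Start in late G1 is driven by the G1 cyclins Cln1, Cln2 and Cln3 acting with the kinase Cdc28. The transcription factors SBF and MBF then switch on a wave of genes for further cyclins, DNA synthesis, histones and cell wall growth. At the end of the cycle, daughter cells make glucanases and related proteins that dissolve the septum. Cultures that run out of glucose stop dividing, lower ribosome synthesis and turn to respiration of ethanol.

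Levels are the deposited log2 probe set values, and 1 unit is a doubling. Differences are flight minus ground from limma, and a gene was called changed at a Benjamini-Hochberg adjusted p under 0.05 over the 5449 genes tested. Genes of alpha cells were present on every array: MF(ALPHA)1, encoding the alpha pheromone, lay between 10.56 and 13.12. Medians of 3 of the deleted genes, LEU2, LYS2 and URA3, were 5.12, 3.79 and 3.54. The background level was 4.56 (the 95th percentile of fission yeast probe sets). LYS2 and URA3 lay below it on every array, while LEU2 lay above it on every array, from 4.71 to 5.35. HIS3, in which BY4742 carries a partial deletion, had a median of 9.92. The other alpha-cell genes looked at, MF(ALPHA)2, STE3 and SAG1, had medians of 11.32, 10.08 and 11.72. The a-cell pheromone genes MFA1 and MFA2 were not at background, with medians of 9.57 and 9.30. Nor were the other a-cell genes looked at. BAR1, an a-cell protease, had a median of 6.69, and STE2, ASG7 and AGA2 had medians of 7.74, 6.99 and 6.42. Flight arrays varied more than ground arrays. Their root mean square distance from the group mean ran from 0.263 to 0.584, against 0.0966 to 0.339 on the ground. The FLO8 flight replicates 2 and 3 were the farthest, at 0.584 and 0.433, and were the least alike of any group, with a correlation of 0.882 over the genes tested. Array medians lay between 9.88 and 9.94 in flight and between 9.84 and 9.90 on the ground.

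In flight, 132 genes were higher (2.42% of those tested) and 115 were lower (2.11%), 247 in all (4.53%). The counts in gene lists below are to be read beside these shares. An unadjusted p under 0.05 was reached by 1178 genes (21.6%). Among the lower genes were 55 of 127 ribosomal protein genes, and among the higher were 7 of 34 proteasome genes. The other 185 called genes were 125 higher and 60 lower, and every one of them had the same sign in all 3 strains, as did 47.1% of all genes tested. Calls were made on the difference shared by these 3 strains, which favours 1 sign, so this is no separate support. The changes were small. The median difference was 0.42 among the 125 higher genes, 94 of which changed by less than 0.5, and -0.65 among the 60 lower genes. Only 1 of the higher genes exceeded 1 and 5 of the lower genes passed -1. The median over all genes was 0.03.

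These counts moved strongly with the arrays and the model. Without WT flight replicate 3, FLO1 flight replicate 1 and FLO8 flight replicates 2 and 3, which had stood apart in earlier work on these files, 759 genes were higher and 554 lower, and 232 of the 247 calls were kept. Those are 4 of the 8 flight arrays, and they were picked from these same data for standing apart. Leaving out widely varying arrays lowers the spread, so calls gained or kept in that fit are no independent support. The 2 FLO1 flight arrays lay equally far from their group mean, at 0.35, so neither stands apart within its group. Centring each array on its median, which removes the small shift between conditions, gave 68 higher and 157 lower genes. The share of calls that were higher then went from 53.4% to 30.2%. Leaving out single arrays gave 35 to 275 higher and 57 to 234 lower genes. Higher genes numbered 35 to 65, and lower genes 57 to 83, when the array left out was WT ground replicate 1 or 2, any FLO1 ground array, FLO8 ground replicate 1 or 2, WT flight replicate 2 or FLO1 flight replicate 2. They numbered 204 and 234 without FLO8 flight replicate 2, and 275 and 180 without FLO8 flight replicate 3. Without the wild type 0 genes were higher and 1 was lower, and without FLO1 0 and 12. Without FLO8 the counts were 47 and 69. In each of these fits all 247 genes kept their direction, which their choice from these same arrays favours.

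RNA quality also moved with condition. The signal of 3 prime over 5 prime probe sets of 7 control genes, which rises as RNA is degraded or copied incompletely, was 1.22 ± 0.0866 log2 (SD, n = 8) in flight and 1.10 ± 0.0575 (SD, n = 9) on the ground. The mean difference within strains was 0.135, with a two-sided exact permutation p of 0.0015 over 4000 assignments within strains, where 2.50e-04 is the smallest possible. With this value as a covariate, 1 gene was higher (SGF73) and 6 were lower (CLN1, CLN2, YBL100W-A, RPL12A, RPS22A and ADE17). Of these 7, ADE17 was not among the 247 calls. All 247 genes kept their direction, which their choice from these same arrays favours. The covariate moved with condition, and the part of RNA quality in the other calls was not tested.

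**Figure D1:**
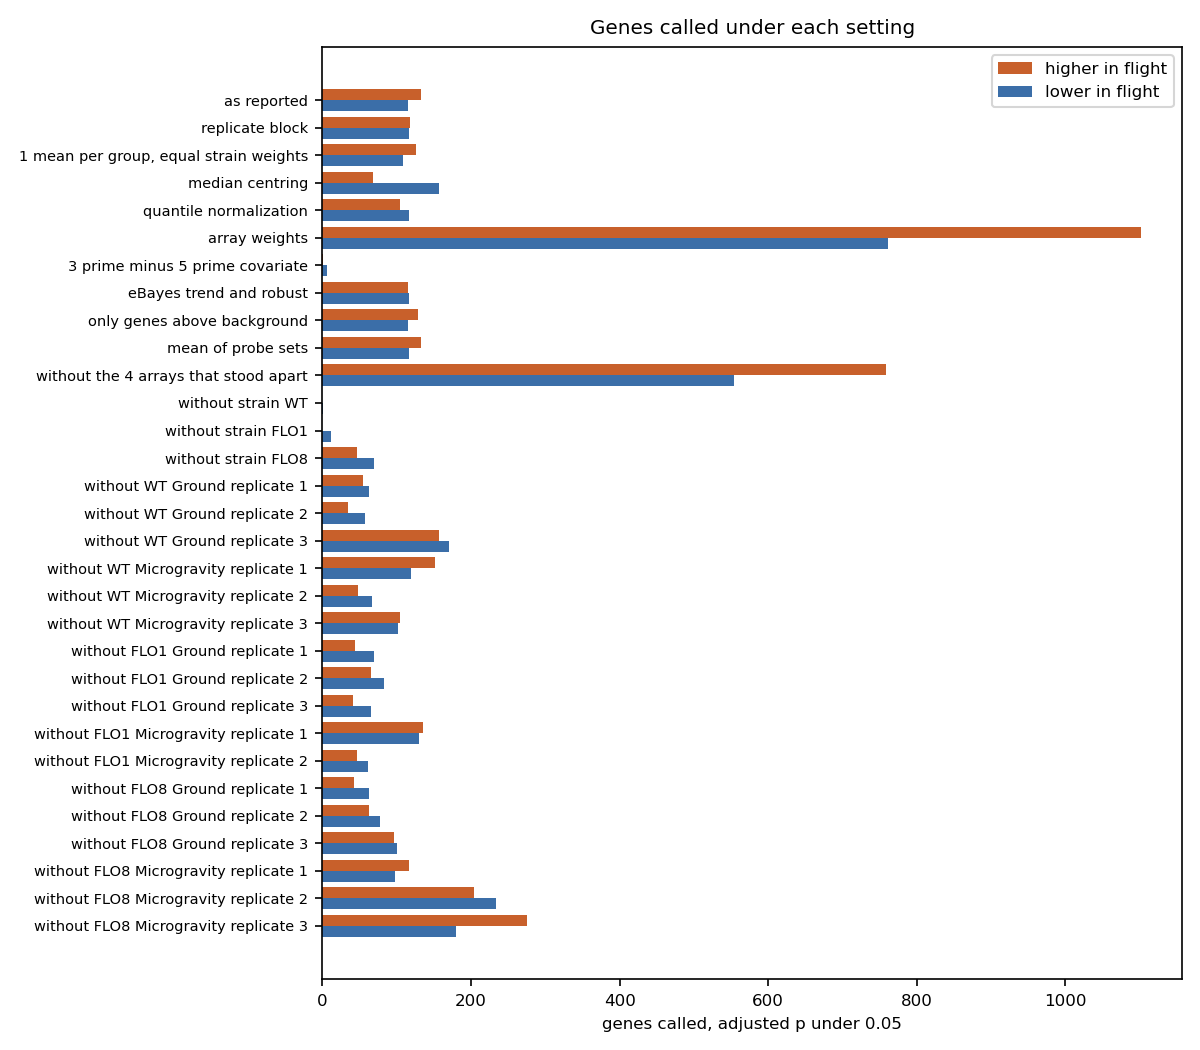
Number of genes called higher (orange) or lower (blue) in flight at an adjusted p under 0.05 (x axis) under each processing setting (y axis). The reported fit has 132 and 115 calls, the fit without 4 arrays 759 and 554, and the fit with the 3 prime minus 5 prime covariate 1 and 6.

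Among the genes of Start, CLN1 had the lowest p of all genes outside the ribosome and proteasome. CLN1 and CLN2, the paired G1 cyclins, lay lower on each of the 8 flight arrays than on any ground array. Over the fixed list of G1 cyclins and Start regulators, 5 of 21 measured genes fell (CLN1, CLN2, PCL1, CLB6 and YOX1) and 0 rose, while 16 did not pass. The share that fell was 23.8%, against 2.11% of all genes tested. The list median was -0.12, against 0.03 for all genes. Without the 4 arrays named above 7 fell and 2 rose, at a median of -0.20, and with the 3 prime minus 5 prime covariate 2 fell and 0 rose, at a median of -0.02.

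CLN1 levels had a lowest, median and highest value of 7.79, 8.25 and 8.59 over the flight arrays and of 8.80, 9.13 and 9.65 over the ground arrays. The groups did not overlap, and the difference was -1.02 (SE 0.11, adjusted p = 2.36e-04 by limma), a 2.02-fold lower level. CLN1 was called in 13 of 13 alternative fits and in the 17 fits that each dropped 1 array, and it was the 1 gene called when the wild type was left out. In RNA from whole cultures, fewer cells at Start and less CLN1 RNA per cell cannot be told apart.

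CLN2 had a lowest value of 8.12 and a median of 8.63 in flight, and its highest flight array lay below the lowest ground array, at 9.06. The ground median was 9.34 and the highest ground array 9.51, with a 1.60-fold lower level in flight (adjusted p = 7.80e-04). The differences within WT, FLO1 and FLO8 were -0.62, -0.72 and -0.69. PCL1, a G1 cyclin that partners the kinase Pho85, had a larger difference of -1.27 (SE 0.28, adjusted p = 0.0205). Its groups overlapped, because 1 flight array, FLO8 replicate 2, reached 7.32 while the flight median was 5.12 and the ground arrays ran from 6.01 to 7.06.

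CLB6, an S phase cyclin, gave 5.76, 6.17 and 6.48 in flight and 6.52, 6.71 and 7.07 on the ground. The groups did not overlap, and the difference was -0.70 (adjusted p = 0.00244). YOX1, a homeodomain repressor of early cell cycle genes, fell by 0.93 (adjusted p = 0.00455), with flight arrays from 7.79 to 9.54 and ground arrays from 8.88 to 9.94.

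Some genes of S phase fell with the cyclins and most did not pass. RNR1, the large subunit of ribonucleotide reductase, which makes deoxynucleotides, had flight values of 7.14, 7.46 and 8.96 and ground values of 7.87, 8.74 and 9.30. The groups overlapped, and the difference was -1.11 (SE 0.25, adjusted p = 0.0245). MEC1, the checkpoint kinase of the DNA damage response, rose by 0.38 (adjusted p = 0.0217), and these 2 were the genes called among 25 of deoxynucleotide synthesis and DNA damage response.

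HTB2, encoding histone H2B, had 10.13, 10.53 and 10.95 in flight and 11.02, 11.19 and 11.55 on the ground. Its groups did not overlap, the difference was -0.72 (SE 0.10, adjusted p = 8.42e-04), and it was the 1 histone gene of 9 measured that passed. The next lowest p in that list was that of HHT1, encoding histone H3, with -0.22 (adjusted p = 0.149). Of the 4 core subunits of cohesin, the ring that holds sister chromatids together, looked up after values were seen, MCD1 and IRR1 fell by 0.54 (adjusted p = 0.00768) and 0.35 (adjusted p = 0.0396). SMC1 and SMC3 did not pass, at 0.03 (adjusted p = 0.900) and -0.07 (adjusted p = 0.797). Of 38 genes of DNA replication and 26 of mitosis and G2/M, 0 passed in either direction, with list medians of 0.03 and 0.01. Without the 4 arrays named above, 2 replication genes were higher and 4 lower, and 1 mitotic gene was called each way.

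**Figure D2:**
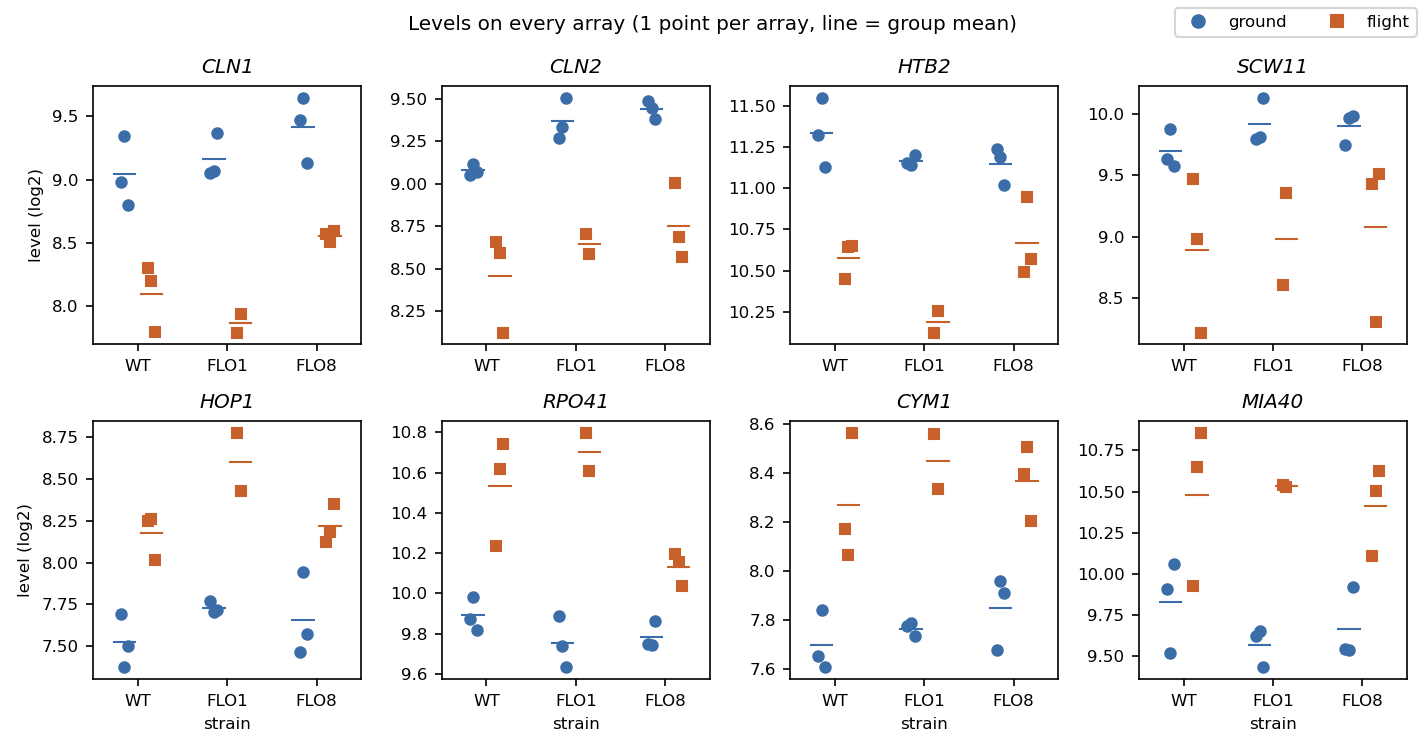
Log2 level of 8 genes (1 panel each, y axis) on every array, by strain (x axis), with ground arrays as blue circles, flight arrays as orange squares and lines at group means. CLN1, CLN2, HTB2 and SCW11 lie below every ground array on all 8 flight arrays and HOP1, RPO41 and CYM1 above, while MIA40 overlaps.

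Of 14 measured genes that separate daughter from mother cells, 4 fell (EGT2, SCW11, SUN4 and DSE2), 0 rose and 10 did not pass. The share that fell was 28.6%, against 2.11% of all genes tested. The difference was below 0 for 13 of the 14. The list median was -0.53, and it was -0.51 in WT, -0.65 in FLO1 and -0.41 in FLO8. Without the 4 arrays 6 of the 14 fell and the median was -0.27, and with the 3 prime minus 5 prime covariate 0 fell and it was -0.49.

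SCW11, a glucanase-like cell wall protein made in daughter cells, had 8.22, 9.17 and 9.51 in flight and 9.58, 9.82 and 10.13 on the ground. No flight array reached a ground array, and the level was 1.80-fold lower (adjusted p = 0.0205), a difference of -0.85 that was -0.50 without the 4 arrays (adjusted p = 0.00523). EGT2, a wall protein expressed early in G1, also separated completely, with 8.74 to 9.44 in flight and 9.64 to 10.21 on the ground, and fell by 0.77 (adjusted p = 0.00384). SUN4, of the SUN family of septation proteins, fell by 0.68 (adjusted p = 0.0217), and DSE2, a daughter-specific wall protein, fell by 0.80 (adjusted p = 0.0264).

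Cell wall enzymes of growing cells fell in part. UTR2, a transglycosylase that links chitin to glucan, had 8.46, 9.22 and 9.79 in flight and 9.78, 10.16 and 10.85 on the ground. The groups met only at 9.79 and 9.78, and the level was 2.16-fold lower (adjusted p = 0.00213). GAS1, the glucan-remodelling enzyme anchored at the plasma membrane, fell by 0.91 (SE 0.19, adjusted p = 0.0144), with flight arrays from 9.98 to 12.07 and ground arrays from 11.22 to 12.08. These were the 2 called genes of 29 for glucan and chitin, whose list median was 0.05.

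PSA1, which makes GDP-mannose for glycosylation and the wall, fell by 0.58 (adjusted p = 0.00299), from a ground median of 13.31 to a flight median of 12.65, and was the 1 gene called of 41 of protein glycosylation. Of the 26 wall mannoprotein genes 0 were called, at a list median of 0.05, and without the 4 arrays 2 were lower. ROM2, an activator of Rho1 in the cell wall integrity pathway, rose by 0.35 (adjusted p = 0.0294) and was the 1 called of 19 of that pathway. In bud site selection and polarity, CDC24, the exchange factor of Cdc42, rose by 0.42 (adjusted p = 0.0438) while RAX2, a landmark protein at bud sites, fell by 0.51 (adjusted p = 0.0290).

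ELO2 and ELO3, the elongases that build very long chain fatty acids for sphingolipids, both fell. ELO2 gave 8.25, 8.61 and 9.48 in flight and 9.14, 9.37 and 9.65 on the ground, a 1.63-fold lower level with some overlap (adjusted p = 0.00351). ELO3 fell by 0.69 (adjusted p = 0.0160). The other 29 of the 31 genes for sphingolipids and very long chain fatty acids did not pass, and the list median was 0.04. Of 32 genes for fatty acids and phospholipids and 27 for ergosterol, 0 were called, and without the 4 arrays 1 was higher and 6 lower in the first and 1 higher and 4 lower in the second.

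Other lower genes came from several roles. HO, the mating type switching endonuclease gene, which is expressed in late G1 and non-functional in laboratory strains, had 6.82, 7.50 and 8.02 in flight and 7.86, 8.26 and 8.82 on the ground, and fell by 0.95 (SE 0.13, adjusted p = 0.00137). COS12, of the subtelomeric COS family, fell by 0.89 (adjusted p = 0.0245), with 0 of the other 8 measured COS genes called. MEP2, the ammonium permease and sensor, fell by 0.84 (adjusted p = 0.0419), and NOP53, a ribosome assembly factor, by 0.43 (adjusted p = 0.0302).

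Further lower genes carry only systematic names in the files. YBL100W-A had 11.07, 11.93 and 12.98 in flight and 12.63, 13.18 and 13.74 on the ground, a difference of -1.23 (SE 0.15, adjusted p = 5.07e-04). It was among the genes still called with the 3 prime minus 5 prime covariate. YAR010C had 13.31 to 13.89 in flight and 13.95 to 14.22 on the ground, without overlap, and fell by 0.44 (adjusted p = 0.00501). YBL005W-A fell by 0.98 (adjusted p = 0.0254). The probe sets of all 3 are of the kind that matches several sequences, so these values cannot be given to single genes.

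Biosynthetic lists held few calls beside the ribosomal proteins, where 4.53% of all genes tested were called in either direction. Of 62 ribosome biogenesis genes 53 were below 0 with a median of -0.15, but NOP53 was the 1 that passed, and without the 4 arrays 27 were lower. Of 21 genes for purines and one-carbon units 16 were below 0 (median -0.18) and ADE1, an enzyme of purine synthesis, was the 1 called, with -0.35 (adjusted p = 0.0203). In amino acid synthesis TRP4, of the tryptophan branch, fell by 0.54 (adjusted p = 0.0265) and the other 52 genes did not pass, while without the 4 arrays 16 were lower and 3 higher. TIF4632, encoding the eIF4G2 translation initiation scaffold, went the other way, from a ground median of 9.18 to a flight median of 9.74, and rose by 0.56 (adjusted p = 0.00501).

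Among the higher genes, several act in mitochondria. CYM1, a matrix protease that degrades targeting peptides, had 8.07, 8.37 and 8.57 in flight and 7.61, 7.78 and 7.96 on the ground. No flight array fell within the ground range, and the difference was 0.58 (SE 0.09, adjusted p = 0.00206). MIA40, the oxidoreductase that folds imported proteins of the intermembrane space, rose by 0.77 (SE 0.13, adjusted p = 0.00471), with 9.93, 10.54 and 10.86 in flight and 9.43, 9.62 and 10.06 on the ground. ERV1, the sulfhydryl oxidase that reoxidises Mia40, rose by 0.41 (adjusted p = 0.0481).

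PIM1, the Lon protease of the matrix, rose by 0.51 (adjusted p = 0.00955). PHB1, a prohibitin, rose by 0.30 (adjusted p = 0.0276), and MAS2, a subunit of the presequence processing peptidase, rose by 0.34 (adjusted p = 0.0308). These 6 were the called genes of 38 in mitochondrial import and proteolysis, a list written after the values had been seen, which says nothing independent of them. Its median was 0.17, and 0.10 without the 4 arrays.

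RPO41, the mitochondrial RNA polymerase, had 10.04, 10.42 and 10.80 in flight and 9.63, 9.82 and 9.98 on the ground, without overlap. It rose by 0.62 (SE 0.10, adjusted p = 0.00331). MTF1, its specificity factor, rose by 0.43 (adjusted p = 0.0307), and RMD9, a stabiliser of mitochondrial messages, by 0.36 (adjusted p = 0.0397). These 3 were the called genes of 13 for mitochondrial transcription and DNA, also a list written after the values had been seen. Of 38 respiratory chain and ATP synthase genes 0 passed (median -0.00), and of 69 mitochondrial ribosomal protein genes MRPL22 passed (0.39, adjusted p = 0.0419), at a list median of 0.10. Without the 4 arrays 5 respiratory genes and 11 mitochondrial ribosomal protein genes were higher, and 1 of the latter was lower. MDH1, the malate dehydrogenase of the TCA cycle, rose by 0.31 (adjusted p = 0.0225) and was the 1 called of 18 TCA genes.

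**Figure D3:**
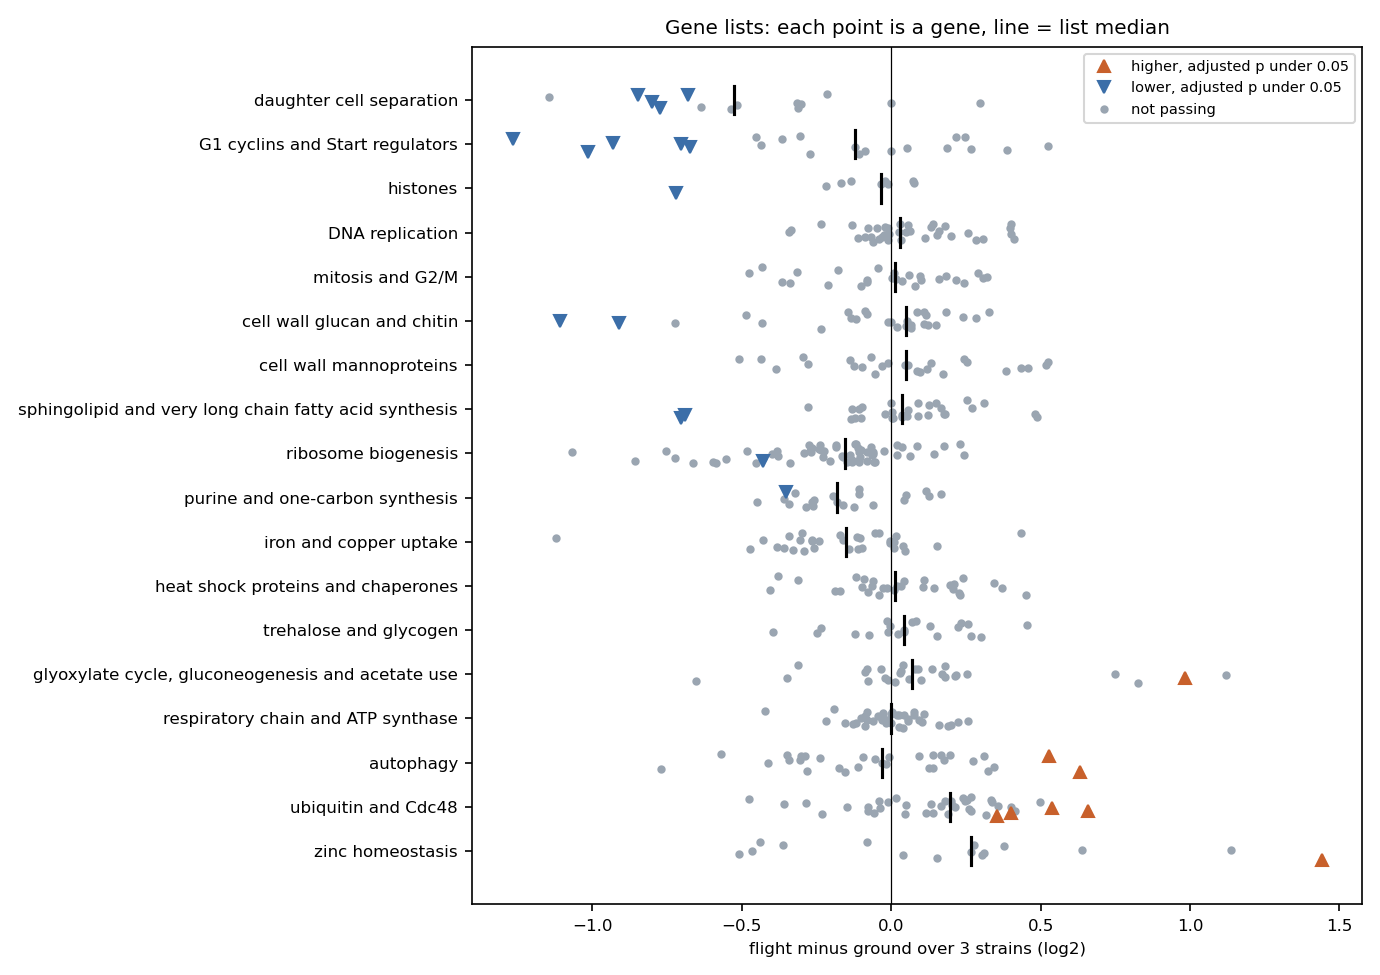
Flight minus ground over 3 strains (log2, x axis) for each measured gene of 18 lists (y axis), with called genes as coloured triangles, others as grey points and a line at each list's median. The daughter cell separation genes lie below 0 in 13 of 14 cases, while the lists of replication and of respiration centre near 0.

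Outside the proteasome, 40 genes of ubiquitin and of the Cdc48 segregase, which extracts tagged proteins for degradation, were measured. Of these, 4 were higher (10%, against 2.42% of all genes tested) and 0 lower, with a list median of 0.20. UFD4, a ubiquitin ligase, had 9.21, 10.29 and 10.71 in flight and 9.35, 9.57 and 9.71 on the ground. All but 1 flight array, FLO8 replicate 3, lay above the ground arrays, and the difference was 0.66 (SE 0.16, adjusted p = 0.0294). UBX7, a Cdc48 adaptor, rose by 0.35 without overlap (adjusted p = 0.0206), NPL4, a Cdc48 cofactor, by 0.40 (adjusted p = 0.0265), and SSM4, a ligase of the endoplasmic reticulum membrane, by 0.54 (adjusted p = 0.0276). Of the 40, 17 were higher without the 4 arrays. VMS1, which works with Cdc48 in quality control of stalled mitochondrial proteins, rose by 0.67 (adjusted p = 0.0265), with 8.22 to 9.87 in flight and 7.70 to 8.31 on the ground.

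Chromatin complexes that assist transcription had several higher subunits, again in lists drawn up after the values were seen. SNF5 and SNF2, of the SWI/SNF nucleosome remodeller, rose by 0.63 (SE 0.14, adjusted p = 0.0205) and 0.50 (adjusted p = 0.0205), and the other 10 of 12 subunits did not pass. SNF5 had 8.35, 8.99 and 9.35 in flight and 8.10, 8.21 and 8.60 on the ground, with some overlap. In the histone acetyltransferase complex SAGA, SGF73 rose by 0.43 (adjusted p = 0.00836), SPT7 by 0.46 (adjusted p = 0.0149) and SPT3 by 0.52 (adjusted p = 0.0432), of 19 measured. TFC7, a subunit of the RNA polymerase III factor TFIIIC, rose by 0.57 (adjusted p = 0.0265). It was the 1 called of 33 genes of RNA polymerases I and III, of which 19 were below 0 (list median -0.06).

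Tethering complexes hold vesicles at their target membrane before fusion. In a list of the same late origin 5 of 29 measured subunits rose, where 2.42% of all genes tested rose. COG3, of the Golgi COG complex, had 8.66 to 9.19 in flight and 8.31 to 8.55 on the ground, without overlap, and rose by 0.43 (adjusted p = 0.00836). VPS54 and VPS51, of the GARP complex, rose by 0.47 (adjusted p = 0.0265) and 0.43 (adjusted p = 0.0453). VPS3, of the endosomal CORVET complex, rose by 0.48 (adjusted p = 0.0273), and SEC3, of the exocyst at the plasma membrane, by 0.35 (adjusted p = 0.0436). In autophagy ATG2, which feeds lipid to the growing membrane, rose by 0.53 (adjusted p = 0.0153) and ATG22, a vacuolar amino acid exporter, by 0.63 (adjusted p = 0.0372), while 29 of 31 genes did not pass. ATG22 was not called with median centring (0.59, adjusted p = 0.0541) or without the 4 arrays (0.21, adjusted p = 0.101).

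The largest single rise among called genes was that of IZH2, a membrane protein of zinc homeostasis. Its flight arrays read 10.40, 9.11 and 11.71 in WT, 12.49 and 11.17 in FLO1, and 9.40, 11.42 and 11.63 in FLO8, while the ground arrays ran from 9.15 to 9.98. Flight values thus spread widely, and 2 of 8 lay within or below the ground range. The difference was 1.44 (SE 0.38, adjusted p = 0.0397), and without the 4 arrays it was 0.53 (adjusted p = 0.220). IZH2 was the 1 gene called of 15 for zinc homeostasis, whose list median was 0.27, and 0.05 without the 4 arrays.

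ADH2, the alcohol dehydrogenase that oxidises ethanol once glucose is gone, had 7.67, 8.75 and 9.74 in flight and 6.97, 8.07 and 8.37 on the ground. The groups overlapped, and the level was 1.97-fold higher (adjusted p = 0.0232). The other 27 genes of the glyoxylate cycle, gluconeogenesis and acetate use did not pass. ICL1, the isocitrate lyase of that cycle, differed by 1.12 (SE 0.46, adjusted p = 0.164), with values by strain of 2.23 in WT, 0.49 in FLO1 and 0.51 in FLO8. The list median was 0.44 in WT, -0.05 in FLO1 and -0.20 in FLO8, and without the 4 arrays 6 genes were higher and 1 lower. TES1, a peroxisomal thioesterase of fatty acid oxidation, rose by 0.39 (adjusted p = 0.0389) and was the 1 called of 27 in its list.

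HOP1, a protein of the meiotic chromosome axis, had the lowest p among the higher genes outside the ribosome and proteasome, in haploid strains, which do not undergo meiosis. It had 8.01, 8.26 and 8.78 in flight and 7.37, 7.69 and 7.94 on the ground, a 1.60-fold higher level without overlap (adjusted p = 8.42e-04). It was the 1 gene called of 40 for meiosis and sporulation, whose list median was 0.11, and without the 4 arrays 10 were higher and 2 lower. IME1 and NDT80, the inducers of early and middle meiotic genes, had medians of 8.74 and 6.91 over all arrays. The medians of SPO11 and SPS4, also meiotic genes, were 9.03 and 6.82. All of these lay above the background level of 4.56, and they were not called.

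Of 37 mating and pheromone response genes, 1 rose (2.70%) and 2 fell (5.41%), against 2.42% and 2.11% of all genes tested. PRM5, a pheromone-regulated membrane protein also used as a reporter of cell wall stress, rose by 0.62 (adjusted p = 0.0265). MF(ALPHA)2, the minor alpha pheromone gene, fell by 0.81 (adjusted p = 0.0470). AGA2, the adhesion subunit of a-agglutinin, fell by 0.85 (adjusted p = 0.0393), at low levels of 5.50 to 6.98 in flight and 5.98 to 7.75 on the ground.

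Stress and nutrient lists held few calls, as did the genes tested at large, of which 4.53% were called in either direction. Of 30 heat shock and chaperone genes 0 were called, and of 30 oxidative stress genes TSA1, the main peroxiredoxin, was the 1 that rose (0.38, adjusted p = 0.0363). SHO1, an osmosensor, fell by 0.34 (adjusted p = 0.0374) and was the 1 called of 25 osmotic genes. Without the 4 arrays 10 chaperone genes were higher and 2 lower, and 13 of 21 trehalose and glycogen genes were higher, against 0 of 21 with all arrays. PUT2, of proline use, rose by 0.35 (adjusted p = 0.0461) among 26 nitrogen-regulated genes, in which MEP2 fell.

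In several further lists 0 genes were called. They were 21 hexose transporters and sensors, 26 genes of glycolysis and fermentation, 27 multidrug and weak acid transporters, 21 genes of the phosphate regulon, 32 of iron and copper uptake and 27 of sulfur amino acid synthesis. In the fit without the 4 arrays 6 hexose genes were higher, at a list median of 0.29 against 0.09, and 5 multidrug transporters were higher and 1 lower. The sulfur list then had 3 lower genes and a median of -0.08, against 0.19 with all arrays, the iron and copper list 1 higher and 2 lower, and the glycolysis list 2 higher and 1 lower. Of the 18 PAU and anaerobic genes 0 were called as well, with 15 above 0 and a median of 0.38, and the medians by strain were 0.01 in WT, 1.49 in FLO1 and -0.03 in FLO8. The median over the strains turned to -0.02 without the 4 arrays and to -0.26 with the 3 prime minus 5 prime covariate. Some of these lists hold genes with wide differences that did not pass, such as HMX1, the heme oxygenase of iron recycling (-1.12, SE 0.32, adjusted p = 0.0560), and PDR5, the multidrug efflux pump (0.94, SE 0.31, adjusted p = 0.0931).

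Lists with a few calls were also counted without the 4 arrays. Calls rose over all genes in that fit, to 759 higher and 554 lower of 5449. A gain in 1 list is therefore not by itself particular to that list. Higher and lower genes numbered 7 and 3 of 25 for deoxynucleotides and DNA damage and 4 and 6 of 29 for glucan and chitin. Glycosylation had 4 and 6 of 41, cell wall integrity 5 and 3 of 19 and autophagy 7 and 3 of 31. RNA polymerases I and III had 6 and 13 of 33 and translation factors 4 and 7 of 37. Mating had 5 and 6 of 37 and purines 1 and 6 of 21. In the lists drawn up after values were seen, SWI/SNF had 5 and 1 of 12 and SAGA 6 and 0 of 19. Among those lists, tethering complexes had 9 and 1 of 29, mitochondrial import 9 and 3 of 38 and mitochondrial transcription 2 and 1 of 13.

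A stricter description takes genes in which no flight array overlapped a ground array across all strains. All 8 flight arrays lay above all 9 ground arrays for 14 genes (0.257% of those tested) and below for 17 (0.312%). Outside the ribosome and proteasome, the higher ones were HOP1, CYM1, RPO41, YML020W, COG3, HEL1, UBX7, MDH1, MCH1, YJU3, GET2, YDR061W and NBA1. The lower ones were CLN1, CLN2, HTB2, CLB6, EGT2, YAR010C, GCG1, SCW11, MLF3 and TRM10. Of the 10 lower genes, CLN1, CLN2, HTB2 and CLB6 peak at Start or in S phase, and EGT2 and SCW11 act at the wall between mother and daughter. YAR010C, GCG1, MLF3 and TRM10 were placed in neither group. The grouping was made after the values were seen, and the share of such genes among all genes tested was not counted. Groups did not overlap within each of the 3 strains for 42 higher (0.771%) and 37 lower genes (0.679%).

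YML020W, which has only a systematic name in the files, is an example of a small and tight change. Its flight arrays had 9.30, 9.36 and 9.67 and its ground arrays 8.86, 9.02 and 9.15, and it rose by 0.43 (SE 0.07, adjusted p = 0.00501).

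Whether the flight response differed between strains was tested as an interaction. Of 5449 genes 0 were called (0.0%) by limma, and 125 had an unadjusted p under 0.05 (2.29%). The lowest unadjusted p-values were those of SPS100, TAH1 and SDS23, at 0.00204, 0.00318 and 0.00376, each with an adjusted p of 0.999. Leaving out FLO1 flight replicate 2 gave 101 calls, with a lone FLO1 flight array taken to vary like the other groups. Among the 29 genes chosen by size or by p outside the ribosome and proteasome, AGA2 had the lowest unadjusted interaction p, 0.0193, with differences of -1.39 in WT, -1.15 in FLO1 and -0.08 in FLO8. RPO41 followed with 0.0423, at 0.64, 0.95 and 0.34.

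Single strains gave few calls on their own. In WT 8 genes were lower (0.147%) and 0 higher, in FLO1 2 were lower (0.0367%) and 0 higher, and in FLO8 0 were called in either direction (0.0%). At an unadjusted p under 0.05 the counts were 545, 714 and 357. Dropping single arrays gave 0 to 510 calls in FLO1 and 0 to 1 in FLO8. The 510 came without FLO1 flight replicate 2, where the 1 FLO1 flight array left was taken to vary like the other groups, and the next highest count was 4. Array weights gave 598 in WT, 0 in FLO1 and 748 in FLO8. Differences of all genes correlated between strains, which share no arrays in these comparisons. The values were r = 0.398 between WT and FLO1, 0.417 between WT and FLO8 and 0.427 between FLO1 and FLO8. They describe genes, which are not independent replicates. Ground cultures were run after the flight, so a shift between batches or in RNA quality cannot be told apart from flight here.

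**Figure D4:**
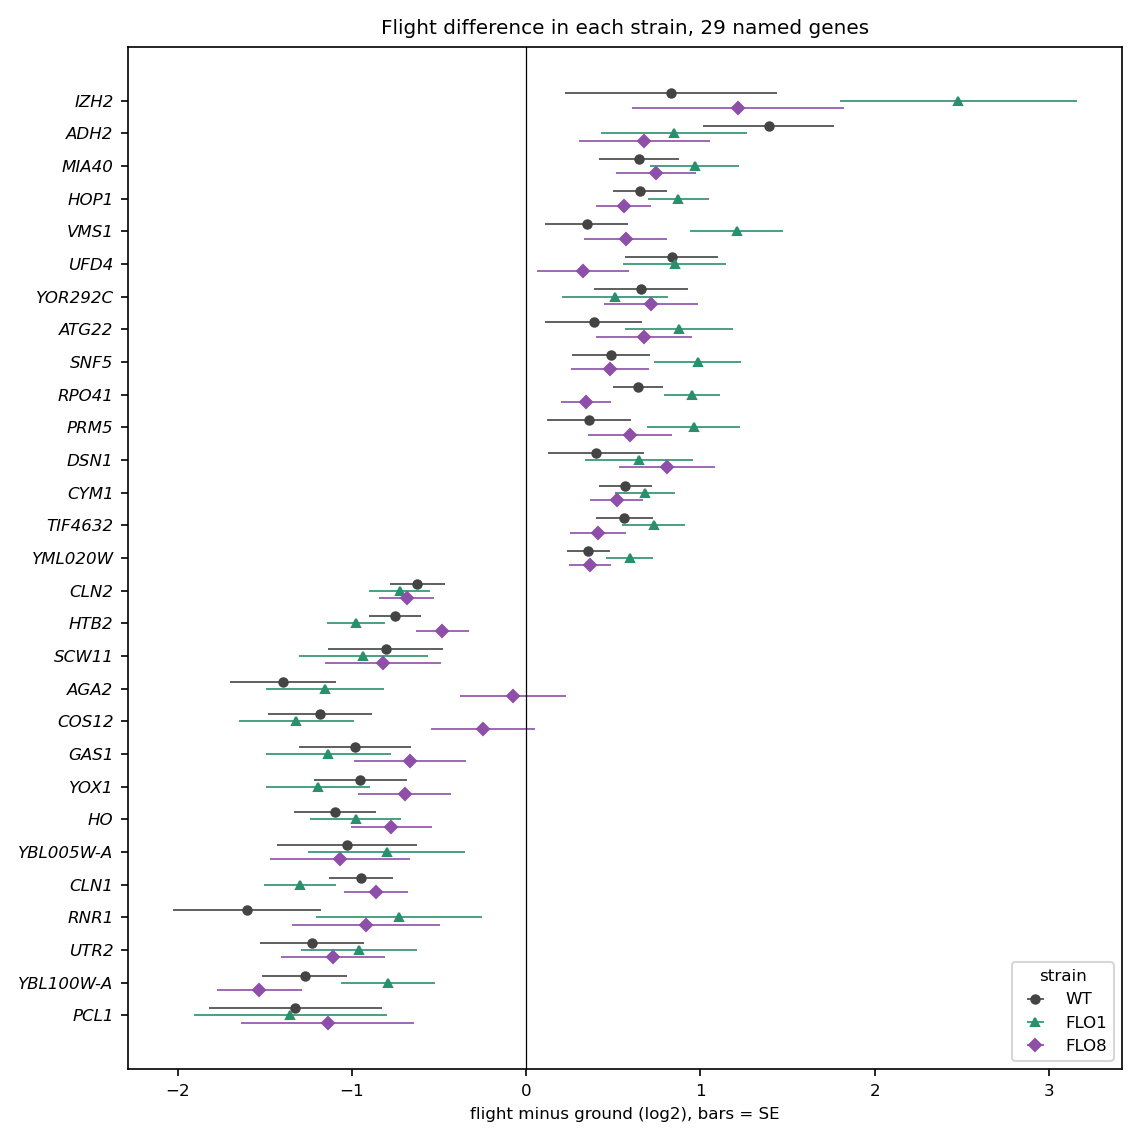
Flight minus ground (log2, x axis, bars are SE) in WT, FLO1 and FLO8 for the 29 genes chosen by size or by p (y axis). Each gene has the same sign in all strains, which the choice by shared difference favours, with the widest spread at IZH2 (0.83, 2.48 and 1.21).

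Of the 29 genes chosen by size or by p, all kept their direction in 13 of 13 alternatives. The choice by shared difference and the reuse of the same arrays favour this, so it is no separate support. With the 3 prime minus 5 prime covariate 3 of the 29 were called, without WT 1, without FLO1 5 and without FLO8 22. In the 17 fits that each dropped 1 array, 15 kept their call. The 15 were CLN1, CLN2, HTB2, HO, UTR2, YOX1, GAS1, SCW11, YBL100W-A, HOP1, CYM1, RPO41, MIA40, YML020W and TIF4632. IZH2 kept its call in 5 of 17 such fits, AGA2 in 4, ATG22 and DSN1 in 7 and UFD4 in 8. DSN1, a kinetochore protein, rose by 0.62 (adjusted p = 0.0383), while with median centring it did not pass (0.57, adjusted p = 0.0509). YOR292C rose by 0.64 (adjusted p = 0.0275), a call kept in 12, and by 0.39 without the 4 arrays (adjusted p = 0.0330). VMS1 kept its call in 11, PRM5 in 10, COS12 in 12, ADH2 in 13, YBL005W-A in 14, RNR1 in 15, and PCL1 and SNF5 in 16.

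Called genes differed in length. The median gene length in the R64 RefSeq annotation, which is nearly all coding length here, was 1902 bases for the 125 higher genes, 1065 for the 60 lower genes and 1266 for all 5288 genes outside the ribosome and proteasome. In 5 equal bins by length, from the shortest (up to 663 bases) to the longest (2130 bases and more), 0.755%, 2.08%, 1.69%, 2.19% and 5.10% were higher, and 1.23%, 1.61%, 1.69%, 0.666% and 0.473% were lower. The median difference of the longest bin was 0.11, and it was 0.17 in WT, 0.16 in FLO1 and 0.01 in FLO8, and 0.06 with the 3 prime minus 5 prime covariate. SNF2, ATG2, UFD4, MEC1 and RPO41 fall in the longest bin, while CLN1 has 1641 bases and HTB2 has 396. The part of gene length in the calls was not tested.

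**Figure D5:**
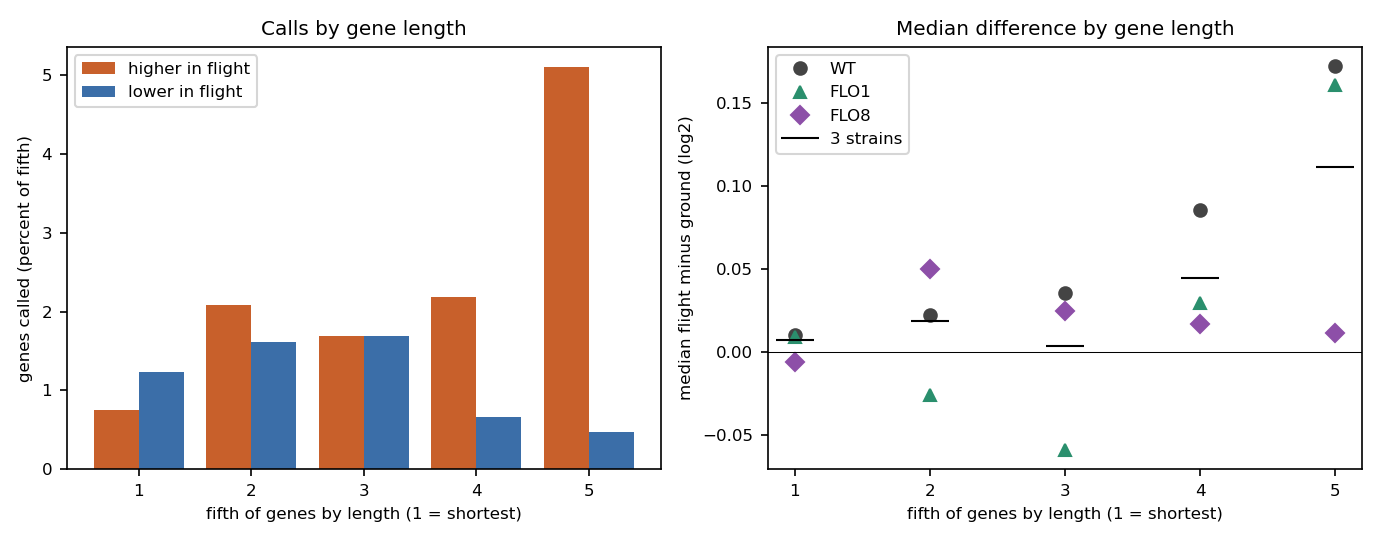
Left, percent of genes called higher (orange) or lower (blue) in flight in each of 5 bins of genes by length (x axis, 1 is the shortest). Right, median flight minus ground (log2) per bin over 3 strains and in each strain. The longest bin has 5.10% higher and 0.473% lower calls.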

How the data were processed

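The 17 samples were hybridised to Affymetrix Yeast Genome 2.0 arrays. The authors deposited log2 levels per probe set, from 2.58 to 15.08, made by the authors with RMA and affy 1.26.1 per the submitters' processing notes, which also name MAS5 without its role. No scanner files were used here, so background correction was not redone. Of 10928 probe sets, 5498 were annotated to 1 S. cerevisiae gene in GEO's platform table, with 12 symbols updated, and the probe set with the highest mean was kept for 47 genes with several, which left 5449 genes. Of these, 58 had a mean below background. No array pair was identical, and the number of arrays limits precision.

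Flight minus ground was fitted with limma 3.58.1 in R 4.3.3 with strain as an additive factor (13 residual degrees of freedom), eBayes and Benjamini-Hochberg adjustment. The interaction and the values within strains came from 1 mean per group in the same 17 arrays. The script was tested on simulated data. Alternatives changed the normalization, array weights, covariates, filter, probe set choice and arrays. Named genes were up to 12 per direction by size and up to 6 by p among called genes above background, and up to 4 per list by p. Other called genes (the added lists, the complete separations, MCD1 and IRR1) were chosen after their values were seen. The members, the 44 lists and the rule were chosen with earlier results of these data known, and 5 lists were added after values were seen.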

Additional observations from a re-analysis of the deposited data

Results flagged for a closer look

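Among the 29 genes chosen by size or by p, 1 array stood far from the rest of its condition in 5 of 58 groups of flight or ground arrays examined. A rate of about 1 in 20 would apply to independent groups of normally distributed values, whereas each group here pools 3 strains. These genes share the same 17 arrays, so the 5 were not tested against chance. All 5 were flight arrays. PCL1 read 7.32 on FLO8 flight replicate 2, against 5.57 on the nearest array and a flight median of 5.12. The same array read 8.96 for RNR1 (nearest 7.95, median 7.46) and 12.07 for GAS1 (nearest 10.87, median 10.68), so that on it these 3 genes, which fell in flight, lay within or above the range of the ground arrays. UFD4 read 9.21 on FLO8 flight replicate 3 (nearest 10.01, median 10.29), below the ground median of 9.57. VMS1 read 9.87 on FLO1 flight replicate 1 (nearest 8.67, median 8.54). These arrays are 3 of the 4 left out in the fit without 4 arrays.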

How the results depend on the processing

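All 247 calls kept their direction in every alternative that tested them, and 0 values reversed. The calls were chosen from these same arrays, which favours this. Against 132 higher and 115 lower genes, median centring gave 68 higher, array weights 1102 and 761, the 3 prime minus 5 prime covariate 1 and 6, leaving out the 4 arrays 759 and 554, leaving out WT 0 and 1, FLO1 0 and 12, and FLO8 47 and 69. Single arrays left out gave 35 to 275 and 57 to 234. The array weights ran from 0.0924 to 5.50 and their fit did not fully converge. Quantile normalization (105 and 117), eBayes with trend and robust (115 and 117), 1 mean per group (126 and 109), the background filter (129 and 115) and the mean of probe sets (132 and 117) stayed within 1.5 times. Calls in WT went from 8 to 13 with centring, 598 with weights, 464 without the 4 arrays and 1 to 34 without single arrays. Calls in FLO1 went from 2 to 0 with weights, 5 without the 4 arrays and 0 to 510. Without FLO1 flight replicate 2 (the 510), and for FLO1 and FLO8 without the 4 arrays, 1 flight array is left and the other groups supply its spread. In FLO8 they went from 0 to 748 with weights, and 0 to 1. Interaction calls ran from 0 to 101 without single arrays. The causes were not tested, beyond fewer arrays where arrays were left out.

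Deviations of same-numbered ground and flight arrays correlated from -0.385 to -0.341 in WT, at -0.0498 and 0.185 in FLO1, and from -0.0477 to 0.354 in FLO8. Deviations from means of 2 or 3 arrays constrain each other, so these values cannot settle whether replicate numbers pair the arrays. With replicate number as a block, 118 genes were higher and 116 lower, WT had 3 calls and FLO1 0. Of 2370 gene values under alternatives, 1689 kept their side of the threshold, 670 no longer passed and 11 passed in addition. Of 1470 list medians, 32 moved beyond the spread.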
